A study of Homo sapiens with 12 samples.

Results

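The genes that separated 2 ligands of the aryl hydrocarbon receptor (AHR), 6-formylindolo[3,2-b]carbazole (FICZ) and kynurenic acid (KynA), were described in the established human glioblastoma line U-87MG. The comparison set the 4 arrays of cells given 100 nM FICZ against the 4 arrays of cells given 50 µM KynA, both for 24 h, out of 12 arrays in all. The other 4 arrays came from cells given the solvent DMSO for the same time. All 12 samples came from stable U-87MG cells made with a lentiviral control shRNA (shCtrl), so every group carried that shRNA and no group carried a knockdown of AHR. Features were the transcript clusters (probe sets that cover a transcript) with exactly 1 gene symbol in the platform annotation. They were 13577 of 15759 clusters and stood for 13530 genes, of which 10807 were bright enough to test. The doses differed, and the comparison is one of these treatments as given, not of equal amounts of ligand.

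AHR is a transcription factor that waits in the cytosol with HSP90 and other chaperones until a small molecule binds it. It then enters the nucleus, pairs with ARNT and binds DNA at sites with the core GCGTG. Its best known targets are the CYP1 enzymes, which oxidise many AHR ligands, and the feedback genes AHRR and TIPARP, whose products restrain the receptor. FICZ forms from tryptophan under light and binds the receptor tightly, while KynA is made by cells from kynurenine.

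Values were log2 signals after RMA, and a difference is FICZ minus KynA on that scale. Array medians over the whole table lay between 8.3 and 8.33, and correlations between a FICZ and a KynA array ran from 0.944 to 0.976. 1 array, FICZ 4, stood apart, with a score of 24.2 on the first principal component (FICZ 2 was next at 13.6) and an array weight of 0.551, the lowest of all. Several results are therefore given with and without it, and other differences may rest on it in part. The labels call the 4 samples of a group biological replicates and do not say whether they were separate cultures, so p-values measure only the spread among these samples, part of which may be technical. Precision is limited by the number of arrays. The median standard error (SE) of a difference was 0.106. Of 13 glioma line genes 9 were tested, with a mean level of 10.25 over all arrays, against 8.914 for all tested genes. Bright ones were VIM at 13.1, TNC at 11.8, MET at 11.2, CHI3L1 at 10.8 and CD44 at 10.2. The other tested members were dimmer on average, and S100B, OLIG2 and SOX2 were not analysed here.

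Without pairing, FICZ and KynA were separated by 1 gene. SLC16A6, which belongs to the monocarboxylate transporters, was higher with FICZ and was the only 1 of 10807 tested genes (0.00925%) to pass a Benjamini-Hochberg adjusted p of 0.05 in limma. Its log2 signal was 9.91, 9.86, 9.94 and 9.99 in FICZ arrays 1 to 4. It was 8.91, 8.49, 8.87 and 8.62 in KynA arrays 1 to 4, and 6.98, 7.36, 7.68 and 7.64 in DMSO arrays 1 to 4. All FICZ arrays lay above all KynA arrays, and all KynA arrays lay above all DMSO arrays. The difference between ligands was 1.20 ± 0.139 (SE, n = 4; 95% interval 0.91 to 1.5), or 2.31-fold, with a limma adjusted p of 0.00533. It passed in 12 of 12 fits that each left out 1 array, with adjusted p from 0.000433 to 0.0397. Without FICZ 4 the difference was 1.18, with an adjusted p of 0.0364. A two-sided exact permutation test of the 4 against 4 arrays gave p = 0.0286, the smallest that its 70 arrangements allow. Any gene without overlap between the ligands reaches that p.

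No gene passed as lower with FICZ. The smallest limma adjusted p on that side was 0.117, for ECI1, and 564 genes (5.22%) were lower at an unadjusted p under 0.05. On the other side 337 genes (3.12%) were higher at that level. Together these were 901 genes (8.34%), of which 37.4% were higher with FICZ. Cyclic loess scaling moved the split to 439 higher and 428 lower, or 50.6% higher. Without FICZ 4 the counts were 285 higher (2.64%) and 403 lower (3.73%). The median difference over all tested genes was -0.02, and FICZ had the higher mean in 4616 genes (42.7%), or 5043 without FICZ 4. Differences were small: 6 genes (0.0555%) were at least 2-fold apart and 45 (0.416%) at least 1.5-fold. All 4 FICZ arrays lay above all 4 KynA arrays in 151 genes (1.4%) and below them in 301 (2.79%).

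**Figure D1:**
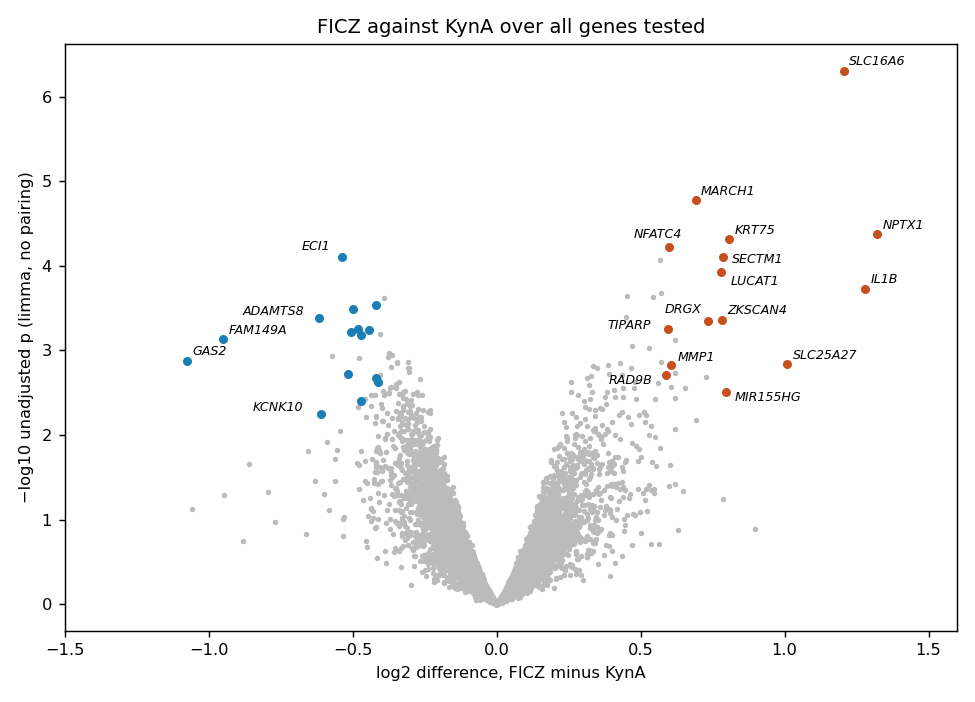
Each point is 1 of 10807 tested genes, with the log2 difference FICZ minus KynA on the x axis and −log10 of the unadjusted limma p without pairing on the y axis. Orange and blue points are the 15 largest positive and the 15 largest negative differences among genes with an unadjusted p under 0.01 and no overlap of the FICZ and KynA arrays. SLC16A6 lies highest, and its adjusted p of 0.00533 was the only one past 0.05.

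With pairing, in which samples of equal replicate number form a block, 6 genes (0.0555%) passed and 0 were lower with FICZ at an adjusted p under 0.05 in limma. The 6 were SLC16A6, the inflammatory cytokine IL1B, the neuronal pentraxin NPTX1, SECTM1, MARCH1 (now MARCHF1) and TIPARP, all higher with FICZ. An exact test that flips the signs of the 4 paired differences gave p = 0.125 for each, the smallest that its 16 arrangements allow. At an unadjusted p under 0.05 the replicate block gave 404 genes higher (3.74%) and 647 lower (5.99%), or 1051 together (9.73%). FICZ was above KynA at all 4 replicate numbers in 702 genes (6.5%) and below it in 1174 (10.9%). The labels do not say that samples of equal number shared a culture or a day, so the arrays were checked for it. The deviations of same-numbered FICZ and KynA arrays from their group means correlated at 0.0644, 0.155, 0.0639 and -0.133 for numbers 1 to 4. Pairs of unequal number ran from -0.223 to 0.257, and 1 of 4 FICZ arrays and 2 of 4 KynA arrays were closest to the other ligand's array of their own number. At equal numbers DMSO and FICZ arrays correlated at 0.13, 0.213, 0.157 and 0.02, and FICZ 1, 2 and 3 were each closest to the DMSO array of their own number. DMSO and KynA arrays correlated at -0.0343, 0.183, 0.161 and -0.0451. Since not every correlation was over 0.1, the bar used for pairs, the arrays do not settle whether the numbers mark pairs, and the calls with the block assume that they do. With the number as a random block, where the estimated correlation was 0.0685, 1 gene passed, and with a fixed block on the 8 FICZ and KynA arrays alone 2 genes did, IL1B and SLC16A6.

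IL1B, the interleukin-1 beta gene, varied with the replicate number in all 3 groups. Its log2 signal was 9.98, 10.44, 9.43 and 9.53 in FICZ arrays 1 to 4 and 8.79, 9.09, 8.21 and 8.17 in KynA arrays 1 to 4. DMSO arrays 1 to 4 held 7.53, 8.24, 7.36 and 7.43, so number 2 was the highest of each group. FICZ arrays did not overlap KynA arrays, whereas DMSO 2 lay above KynA 3 and KynA 4. The difference at each number was 1.18, 1.35, 1.23 and 1.36, which is a narrower spread than that of the levels. The mean difference of 1.28 (2.43-fold) had an SE of 0.256 without pairing (limma adjusted p = 0.185) and of 0.0919 with it (adjusted p = 0.000365). With the block, IL1B passed in 12 of 12 fits without 1 array and in 4 of 4 fits without 1 replicate number, with adjusted p up to 0.0241.

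NPTX1, a secreted pentraxin that binds synaptic glutamate receptors, had the largest difference of all tested genes. It read 9.26, 8.68, 8.92 and 8.88 in FICZ arrays 1 to 4 and 7.79, 6.88, 8.05 and 7.73 in KynA arrays 1 to 4, with a DMSO mean of 6.72. No FICZ array overlapped a KynA array. The difference was 1.32 (95% interval 0.84 to 1.81), or 2.50-fold, and the limma adjusted p was 0.117 without and 0.0135 with pairing. It passed in 8 of 12 paired fits without 1 array and in 0 of 4 without 1 number, where adjusted p ran from 0.0696 to 0.212. SLC16A6 passed with pairing at an adjusted p of 0.0135, in 7 of 12 such fits without 1 array and in 1 of 4 without 1 number.

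The other 3 genes lay at the edge of the threshold, each with a limma adjusted p of 0.0487 with pairing. SECTM1, whose product binds CD7 on T and NK cells, read 8.46, 8.60, 8.87 and 8.74 with FICZ and 7.88, 7.54, 8.22 and 7.89 with KynA, a difference of 0.79 ± 0.144 (SE without pairing). TIPARP, the ADP-ribosyltransferase that restrains AHR, read 10.55, 10.29, 10.86 and 10.52 with FICZ and 9.93, 9.66, 10.11 and 10.14 with KynA, a difference of 0.60 ± 0.134. MARCH1, a membrane ubiquitin ligase known for lowering MHC class II at the cell surface, read 7.96, 8.05, 7.96 and 8.33 with FICZ and 7.43, 7.43, 7.13 and 7.55 with KynA, a difference of 0.69 ± 0.109. None of the 3 overlapped between ligands. Their adjusted p without pairing was 0.117 for SECTM1, 0.271 for TIPARP and 0.0905 for MARCH1. SECTM1 and TIPARP passed in 1 of 12 paired fits without 1 array each, and MARCH1 in 0 of 12. MARCH1 lay above the brightness filter in all FICZ arrays and in no KynA or DMSO array, so it was tested only because it was bright with FICZ.

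**Figure D2:**
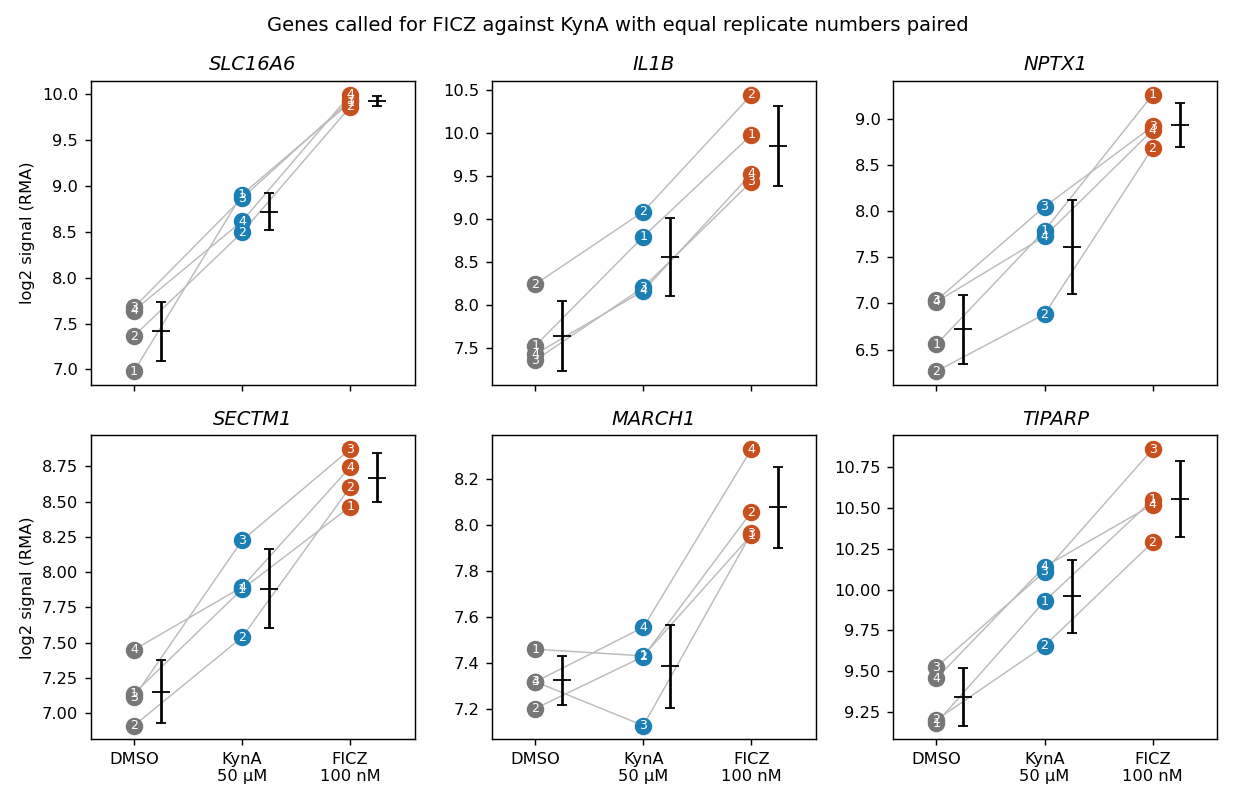
Log2 signal (y axis) of the 6 genes that passed with pairing, in DMSO, KynA and FICZ arrays (x axis). Numbered points are single arrays, lines join arrays of equal replicate number, and bars are the group mean ± SD (n = 4). In each panel all FICZ points lie above all KynA points.

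The comparisons of each ligand with DMSO share the DMSO arrays, and their values are set side by side. SLC16A6 was 2.51 above DMSO with FICZ and 1.31 with KynA. IL1B was 2.20 above it with FICZ and 0.92 with KynA, and NPTX1 was 2.22 above it with FICZ and 0.89 with KynA. SECTM1 stood at 1.52 and 0.73, TIPARP at 1.21 and 0.61, and MARCH1 at 0.75 and 0.06. For these 6 genes the KynA mean thus lay between the DMSO and FICZ means, and for MARCH1 it lay close to DMSO.

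The 250 bases before the start site are printed for the called genes, since AHR binds near many of its targets, with any GCGTG or its reverse complement CACGC in capitals. Sequences are from RefSeq on GRCh38.p14 and run 5′ to 3′ on the strand of the gene. Windows were found for 4 of the 6 genes, and for a gene with several start sites the window is the first that the table lists.
SECTM1 (chr17:82333767-82334016, minus strand): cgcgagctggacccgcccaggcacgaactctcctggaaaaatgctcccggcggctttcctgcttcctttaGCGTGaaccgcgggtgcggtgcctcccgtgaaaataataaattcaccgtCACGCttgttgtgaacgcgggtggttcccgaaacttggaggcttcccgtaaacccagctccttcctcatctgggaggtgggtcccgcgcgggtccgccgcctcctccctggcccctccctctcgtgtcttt
TIPARP (chr3:156674340-156674589, plus strand): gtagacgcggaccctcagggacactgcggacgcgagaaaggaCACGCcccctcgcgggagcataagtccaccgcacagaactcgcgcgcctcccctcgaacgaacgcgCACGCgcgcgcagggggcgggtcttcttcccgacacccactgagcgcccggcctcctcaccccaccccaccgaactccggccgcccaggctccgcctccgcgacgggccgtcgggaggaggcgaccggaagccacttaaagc
MARCH1 (chr4:164383518-164383767, minus strand): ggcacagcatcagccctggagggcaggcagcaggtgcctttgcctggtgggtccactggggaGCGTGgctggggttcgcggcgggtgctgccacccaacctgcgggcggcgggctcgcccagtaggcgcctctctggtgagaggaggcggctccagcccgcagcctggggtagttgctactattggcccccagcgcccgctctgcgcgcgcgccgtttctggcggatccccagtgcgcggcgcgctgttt
IL1B (chr2:112836780-112837029, minus strand): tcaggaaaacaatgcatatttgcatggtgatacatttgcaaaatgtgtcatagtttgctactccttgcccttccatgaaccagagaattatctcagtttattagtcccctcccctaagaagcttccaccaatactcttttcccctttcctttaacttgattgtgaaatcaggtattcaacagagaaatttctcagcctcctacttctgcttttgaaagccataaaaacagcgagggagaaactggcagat
The SECTM1 window holds the core 2 times, beginning at -180 and -131 from the start site, and the TIPARP window holds it 2 times, at -208 and -142. The MARCH1 window holds it 1 time, at -188, and the letters are not in the IL1B window. The longer motif TNGCGTG, which contains the core, was found 1 time, in SECTM1. On either strand the core occurs in 32.2% and TNGCGTG in 4.52% of all 35116 windows of this length, and in 42.6% and 5.71% of the 12982 windows of tested genes. A match describes letters and does not show binding.

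Further genes had large positive differences but did not pass without or with pairing at the settings used throughout. Among genes with an unadjusted p under 0.01 and no overlap between ligands, 61 were higher and 95 lower with FICZ, and the 15 largest of each direction are described. The mitochondrial carrier SLC25A27 read 7.96, 8.26, 8.06 and 7.56 with FICZ and 7.28, 6.12, 7.10 and 7.31 with KynA, a difference of 1.01 (95% interval 0.46 to 1.56; limma adjusted p = 0.348). KynA 2 was the low array there. The SLC25A27 DMSO mean of 7.59 lay between the ligands, at 0.37 below FICZ and 0.64 above KynA, with DMSO arrays from 7.09 to 8.13. Neither ligand passed against DMSO in limma (adjusted p = 0.533 with FICZ and 0.9996 with KynA). SLC25A27 was above the brightness filter in 3 FICZ arrays, 0 KynA arrays and 1 DMSO array, so it entered the test mainly through FICZ arrays. The hair keratin KRT75 read 7.96, 8.40, 8.02 and 8.22 with FICZ and 7.67, 7.43, 7.0 and 7.26 with KynA, a difference of 0.81 with an adjusted p of 0.117 without and 0.0507 with pairing. MIR155HG, the host gene of the inflammatory microRNA miR-155, read 9.26, 9.76, 9.12 and 10.15 with FICZ and 9.10, 9.06, 8.54 and 8.40 with KynA. That difference was 0.80, and it was 0.60 without FICZ 4, the highest array.

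The zinc finger gene ZKSCAN4 differed by 0.78, the noncoding RNA LUCAT1 by 0.78 and the homeobox gene DRGX by 0.73. The collagenase MMP1 differed by 0.60, the calcineurin-regulated transcription factor NFATC4 by 0.60 and RAD9B, a relative of a DNA damage checkpoint protein, by 0.59. The adjusted p of NFATC4 was 0.117 without and 0.0507 with pairing. KRT75 and NFATC4 passed with pairing when each array was centred on its median, an alternative added after the data were seen. Of the 15 largest positive differences, 6 belonged to genes with no KynA array above the brightness filter, namely DRGX, KRT75, LUCAT1, MARCH1, NFATC4 and SLC25A27. Like MARCH1, the genes DRGX, KRT75, LUCAT1 and NFATC4 were above it in all FICZ arrays and no other. They were thus tested only because they were bright with FICZ, which limits what their p-values mean. Over the whole table, 6 genes were above the filter in all FICZ arrays and no other array, and 0 in all KynA arrays and no other.

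Among the 15 largest negative differences, none passed without or with pairing. GAS2, an actin-associated protein first found in growth-arrested cells, read 7.25, 7.27, 6.37 and 6.04 with FICZ and 7.61, 7.90, 7.71 and 8.01 with KynA, a difference of -1.07 (95% interval -1.65 to -0.50; limma adjusted p = 0.348). FAM149A read 8.12, 6.99, 8.35 and 7.93 with FICZ and 8.79, 8.64, 8.70 and 9.05 with KynA, a difference of -0.95. FICZ 2 was the low array there, and the difference at numbers 1 to 4 was -0.67, -1.66, -0.35 and -1.12. ECI1, an enzyme of mitochondrial fatty acid oxidation, read 7.76, 7.80, 7.54 and 7.71 with FICZ and 8.27, 8.36, 7.99 and 8.34 with KynA, a difference of -0.54 ± 0.0985 (SE). In all 3 genes every KynA array lay above every FICZ array. Without FICZ 4 the GAS2 difference was -0.84. The metalloprotease ADAMTS8 differed by -0.62, with an adjusted p of 0.240 without and 0.0842 with pairing, and the potassium channel KCNK10 by -0.61. KCNK10 rested in part on FICZ 2, without which its difference was -0.38.

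The remaining 10 were PPM1L (-0.52), the lysosomal cobalamin transporter gene LMBRD1 (-0.51), the aldehyde reductase AKR7A2 (-0.50), GATAD1 (-0.48), DACH1 (-0.47), ZNF367 (-0.47), LIMD2 (-0.44), the mRNA decapping factor DCP1B (-0.42), ZFP1 (-0.42) and epsilon tubulin, TUBE1 (-0.41). Against DMSO, AKR7A2 was -0.56 with FICZ and -0.06 with KynA, and LIMD2 was -0.31 with FICZ and 0.14 with KynA. In LMBRD1 the ligands lay on either side of DMSO, at -0.25 with FICZ and 0.25 with KynA. Of AKR7A2, LIMD2 and LMBRD1, AKR7A2 alone passed against DMSO in limma, and only with FICZ (adjusted p = 0.0253). GAS2 and ZFP1 had no FICZ array above the brightness filter. ZFP1 was above it in 4 KynA arrays and 1 DMSO array, so it was tested only because it was bright with KynA, which limits what its p-value means. GAS2 was above it in 2 KynA arrays and 2 DMSO arrays. Without FICZ 4 the ZNF367 difference was -0.32.

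**Figure D3:**
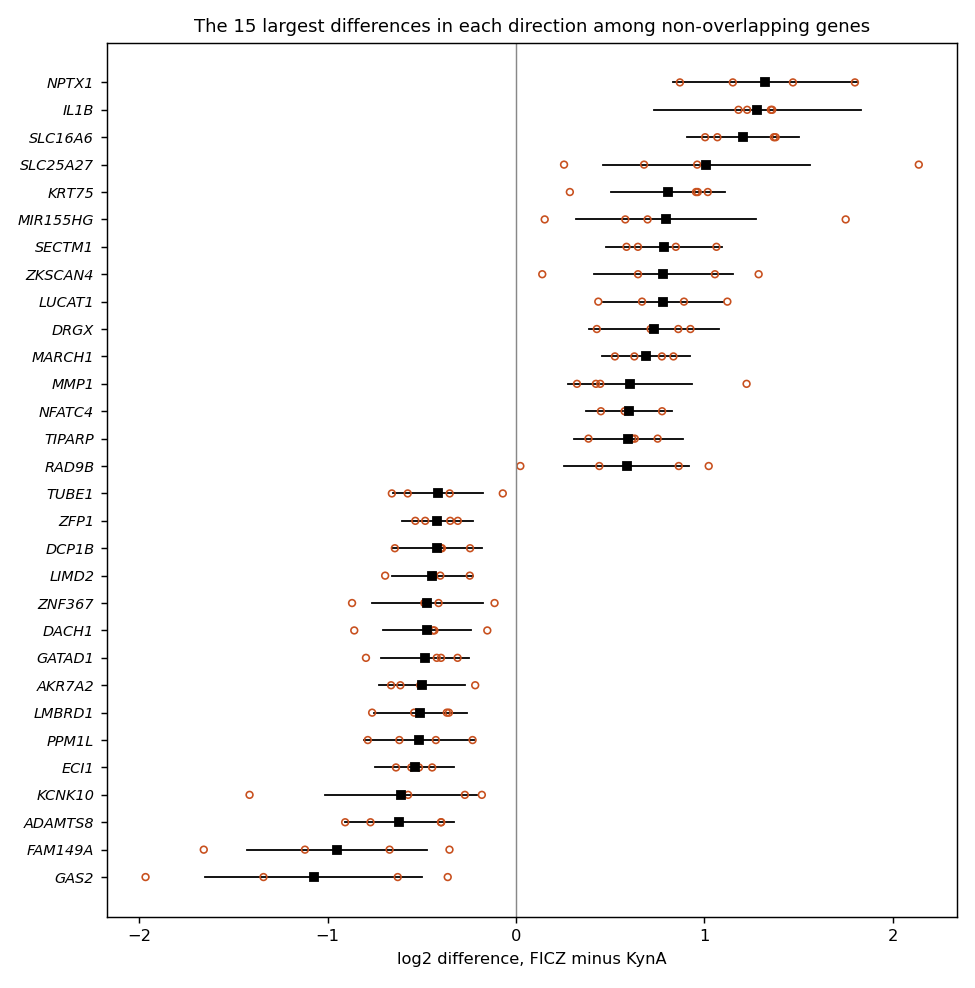
Log2 difference FICZ minus KynA (x axis) of the 15 largest positive and 15 largest negative genes (y axis). Squares are the estimates, bars their 95% intervals without pairing, and circles the differences at each of the 4 replicate numbers. The squares run from -1.07 for GAS2 to 1.32 for NPTX1.

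The AHR target battery held 7 tested genes of 10, of which 5 had a positive difference, against 42.7% of all tested genes. CYP1A1, UGT1A6 and LRRC25 were not analysed here. Without pairing 0 passed in limma, and 4 were higher with FICZ at an unadjusted p under 0.05, namely TIPARP, AHRR, CYP1A2 and CYP1B1, against 3.12% of all genes. The count was 2 without FICZ 4 and also 2 without KynA 2. TIPARP alone passed with pairing, against 0.0555% of all genes. FICZ was above KynA at all 4 numbers in 3 of the 7, against 6.5% of all genes. The median difference was 0.35, against -0.02 for all tested genes, and without 1 array it ran from 0.239 (KynA 2) to 0.455 (KynA 4).

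CYP1B1, which oxidises estradiol and polycyclic hydrocarbons, read 10.52, 10.26, 10.80 and 10.63 with FICZ and 10.06, 9.85, 10.39 and 10.50 with KynA, so the ligands overlapped. The difference was 0.35 (95% interval 0.00077 to 0.71; limma adjusted p = 0.596 without and 0.260 with pairing). AHRR, the AHR repressor, read 9.30, 9.25, 9.35 and 9.35 with FICZ and 9.07, 8.36, 9.0 and 9.11 with KynA, a difference of 0.43 without overlap (adjusted p = 0.475). KynA 2 was the low array there, and without it the AHRR difference was 0.25. CYP1A2 differed by 0.40 with overlap. Against DMSO, CYP1B1 was 1.07 with FICZ and 0.71 with KynA, and AHRR was 0.97 and 0.54.

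NQO1 and ALDH3A1, phase II enzymes of the battery, lay close together between ligands. NQO1 read 10.70, 10.68, 10.81 and 10.87 with FICZ and 10.71, 10.42, 10.87 and 10.65 with KynA, a difference of 0.10 with a 95% interval of -0.18 to 0.38. ALDH3A1 differed by -0.14 (interval -0.45 to 0.16). AHR itself differed by -0.11 (interval -0.27 to 0.05) and its partner ARNT by 0.20, without passing. The AHR complex holds the receptor, its partners, chaperones and coactivators. Of its 11 tested genes, 5 had a positive difference, against 42.7% of all genes, and 0 passed in limma. At an unadjusted p under 0.05, 1 (ARNT) was higher, against 3.12% of all genes, while 0 were in 9 of 12 fits without 1 array. The median was -0.08 (-0.04 without FICZ 2). The ubiquitin ligase subunit CUL4B differed by 0.11 and the acetyltransferase EP300 by -0.12.

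Of 24 other genes known to respond to AHR in some tissue, 17 were tested and 12 had a positive difference, against 42.7% of all genes. IL1B passed with pairing, against 0.0555% of all genes. At an unadjusted p under 0.05, 6 were higher (3.12% of all genes) and 2 lower (5.22%), the latter 0 without KynA 3. All FICZ arrays lay above all KynA arrays in 6 of them, against 1.4% of all genes, and the median difference was 0.18. The angiogenic factor VEGFA read 10.87, 11.01, 10.82 and 10.71 with FICZ and 10.65, 10.59, 10.53 and 10.53 with KynA, a difference of 0.28 ± 0.0801 (SE; limma adjusted p = 0.380). GREM1, a secreted BMP antagonist, read 11.91, 11.85, 11.79 and 11.91 with FICZ and 11.63, 11.37, 11.70 and 11.49 with KynA, a difference of 0.32 (adjusted p = 0.380). Neither overlapped between ligands, and neither passed.

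Some members of the family of SLC16A6 carry lactate and pyruvate across membranes, and what SLC16A6 carries in these cells was not tested. Of 16 genes of the family and its chaperone, 7 were tested and 6 had a positive difference, against 42.7% of all genes. SLC16A6 alone passed, against 0.00925% of all genes without pairing and 0.0555% with it. SLC16A4 read 8.33, 8.61, 7.97 and 8.51 with FICZ and 8.10, 8.03, 7.51 and 7.59 with KynA, a difference of 0.55 with overlap (limma adjusted p = 0.383). SLC16A7, known as MCT2, differed by 0.22 and SLC16A13 by 0.13. The family's median was 0.13. It was 0.24 without FICZ 3 and 0.05 without KynA 4.

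Of the 13 tested genes of the interleukin-1 system, 10 had a positive difference, against 42.7% of all genes, and 3 an unadjusted p under 0.05, all higher with FICZ, against 3.12%. Beside IL1B these were IL1RN, the natural antagonist of the interleukin-1 receptor, and MYD88, the adaptor of that receptor. IL1RN read 7.54, 8.25, 7.75 and 7.94 with FICZ and 7.08, 7.80, 6.84 and 6.85 with KynA, a difference of 0.73 with overlap (limma adjusted p = 0.373 without and 0.230 with pairing). As with IL1B, number 2 was the highest of both groups. IL1RN was above the brightness filter in 3 FICZ arrays, 1 KynA array and 0 DMSO arrays, so it entered the test mainly through FICZ arrays. MYD88 differed by 0.20 without overlap and the receptor IL1R1 by 0.21 with overlap. The list's median was 0.08, and without 1 array it ran from 0.06 (KynA 3) to 0.15 (KynA 2), with 0.12 without FICZ 4 and 0.14 without KynA 1. The count higher was 5 without KynA 1 and 2 without KynA 3.

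Of 15 tested genes among 27 NF-kB subunits, targets and cytokines, 4 were higher with FICZ and 1 was lower at an unadjusted p under 0.05, against 3.12% and 5.22% of all genes. The count higher was 1 without KynA 3, 2 without KynA 1 and 6 without KynA 2, and the count lower was 0 without FICZ 2, FICZ 3 or KynA 4. IL1B was the only one to pass, with pairing (0.0555% of all genes), and it belongs to all 3 of these immune or AHR-responsive lists. The adhesion molecule ICAM1 differed by 0.31 with overlap and the TNF receptor TNFRSF1A by 0.23 without. TNFAIP2, induced by TNF in other cells, differed by -0.26. The median was 0.19. It was 0.103 without FICZ 1, 0.114 without KynA 2, and 0.05 when the brightness filter was raised to the 50th percentile. Of 14 markers of myeloid cells and microglia, which make IL1B in tumours, 5 were tested. The mean of these 5 relative to DMSO was 0.23, 0.42, 0.04 and 0.62 in FICZ arrays 1 to 4 and 0.28, 0.29, 0.05 and 0.004 in KynA arrays 1 to 4. The defining markers CD14, CD68, CX3CR1 and the C1Q genes were not analysed here. All 12 samples came from the U-87MG line, so these values describe the marker genes in that line and are no measure of myeloid cells. The presence of other cells was not tested. In bulk RNA of such a line, a change in all cells and a change in a part of them cannot be told apart.

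The insulin-like growth factor system had 14 tested genes, of which 10 had a positive difference, against 42.7% of all genes, and 0 passed in limma. At an unadjusted p under 0.05, 4 were higher with FICZ, against 3.12% of all genes. The 4 were a ligand and 3 of the binding proteins that hold such ligands in the extracellular fluid. IGFBP4 read 9.05, 8.81, 8.98 and 8.66 with FICZ and 8.25, 8.20, 8.34 and 8.41 with KynA, a difference of 0.57 ± 0.116 (SE; limma adjusted p = 0.185). IGFBP1 read 8.52, 8.11, 8.46 and 8.22 with FICZ and 8.10, 7.76, 7.89 and 7.82 with KynA, a difference of 0.44. IGFBP4, IGFBP1 and the growth factor IGF1 (0.41) did not overlap between ligands, whereas IGFBP3 (0.47) did. IGFBP3 had an adjusted p of 0.498 without and 0.147 with pairing. IGFBP4 was 0.97 above DMSO with FICZ and 0.39 with KynA, and IGF1 was 0.30 above it with FICZ and -0.11 with KynA. In limma IGFBP4 passed against DMSO with FICZ (adjusted p = 0.00116) and not with KynA (0.9996). IGF1 passed with neither ligand (0.263 and 0.9996).

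Growth factor and matrix genes held few differences. Of 9 tested EGF-family ligands, receptors and regulators, 0 passed in limma, and at an unadjusted p under 0.05 there were 2 higher (3.12% of all genes) and 1 lower (5.22%). The ligand EREG read 11.66, 11.34, 11.39 and 11.25 with FICZ and 11.11, 10.73, 11.19 and 11.16 with KynA, a difference of 0.36 without overlap. HBEGF, another ligand of the family, lay the other way, with 8.06, 7.77, 7.94 and 7.81 under FICZ and 8.5, 8.08, 8.21 and 8.18 under KynA, a difference of -0.35 without overlap. Its unadjusted p was no longer under 0.05 in 7 of 12 fits without 1 array, FICZ 4 among them. The receptor inhibitor LRIG1 differed by 0.21 and the sheddase ADAM17 by 0.13. Against DMSO, EREG was 0.91 with FICZ and 0.54 with KynA, and HBEGF was -0.34 and 0.01. EREG passed there in limma with FICZ (adjusted p = 0.00276) and not with KynA (0.494). HBEGF passed there with neither ligand (0.340 and 0.9996).

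Of 16 tested matrix metalloproteinases and inhibitors, MMP1 alone had an unadjusted p under 0.05 with all arrays, against 3.12% of all genes, and 0 passed in limma. The count was 3 with cyclic loess or without FICZ 1, 4 without KynA 1, and 2 without DMSO 1, 2 or 4, FICZ 2 or 3, or KynA 2. MMP1 read 8.57, 8.26, 8.36 and 8.34 with FICZ and 7.34, 7.81, 8.04 and 7.91 with KynA. MMP14, MMP19 and the inhibitor RECK differed by 0.22, 0.22 and 0.21, each with overlap. Among 9 tested pentraxins and synaptic genes NPTX1 passed with pairing, against 0.0555% of all genes. The glutamate receptor subunit GRIA1 differed by 0.33 and the scaffold DLG4 by 0.20, both without overlap. GRIA1 was 0.13 above DMSO with FICZ and -0.20 with KynA, and passed there with neither in limma (adjusted p = 0.513 and 0.9996). The adhesion gene NLGN1 differed by -0.21.

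Of 17 tested surface genes that modulate immune cells in tumours, SECTM1 alone passed, with pairing, against 0.0555% of all genes. PVRL2 (now NECTIN2), a ligand of the receptors DNAM-1 and TIGIT, read 9.08, 9.06, 8.95 and 8.99 with FICZ and 8.89, 8.66, 8.67 and 8.83 with KynA, a difference of 0.26 without overlap (limma adjusted p = 0.416). The stress ligands ULBP2 and MICA, which the NK receptor NKG2D binds, differed by -0.36 and -0.21 with overlap. ULBP2 differed by -0.25 without FICZ 4, and MICA by -0.14 without KynA 3. The list's median was 0.03, and without 1 array it ran from 0.004 (FICZ 1) to 0.06 (FICZ 3).

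Hypoxia and glycolysis genes had 39 tested members, of which 26 had a positive difference, against 42.7% of all genes, and 0 passed in limma. At an unadjusted p under 0.05, 5 were higher with FICZ (3.12% of all genes) and 0 lower (5.22%). Beside VEGFA these included the glucose transporter SLC2A1 (0.31), hexokinase HK2 (0.25) and the carbonic anhydrase CA12 (0.24), all with overlap. SLC2A1 read 9.85, 10.05, 10.09 and 10.0 with FICZ and 9.62, 9.96, 9.55 and 9.61 with KynA, where KynA 2 was the high array. The list's median was 0.07. It was 0.03 without FICZ 2 or KynA 4, 0.04 without KynA 3, 0.11 without FICZ 4 and 0.13 without KynA 2. The count higher was 2 without FICZ 1, 3 without FICZ 3, 8 with cyclic loess, 6 without KynA 2 and 6 without FICZ 4, the last against 2.64% of all genes.

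Cell cycle genes lay lower with FICZ as a group, without any member passing. All 65 tested G2/M and mitosis genes had a negative difference, against 57.3% of all tested genes. In limma 0 passed, 31 were lower at an unadjusted p under 0.05, against 5.22% of all genes, and all FICZ arrays lay below all KynA arrays in 16, against 2.79%. FICZ was below KynA at all 4 numbers in 34, against 10.9% of all genes. The median was -0.21. Without FICZ 4, the median was -0.165, 18 genes were lower at that level, against 3.73% of all genes, and 3 had a positive difference. With cyclic loess the median was -0.17, 23 genes were lower at that level and 2 had a positive difference. The list's mean relative to DMSO was -0.22, -0.25, -0.19 and -0.39 in FICZ arrays 1 to 4 and -0.08, -0.06, -0.06 and -0.04 in KynA arrays 1 to 4. These means did not overlap, and FICZ 4 was the lowest.

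INCENP, which anchors Aurora B kinase on chromosomes, read 8.63, 8.54, 8.55 and 8.53 with FICZ and 8.96, 8.77, 9.07 and 9.02 with KynA, a difference of -0.39 ± 0.0800 (SE; limma adjusted p = 0.185). Its partner survivin, BIRC5, read 9.33, 9.32, 9.10 and 9.16 with FICZ and 9.60, 9.45, 9.58 and 9.51 with KynA, a difference of -0.31. The chromatin protein HMGB2 differed by -0.37 and the spindle protein ASPM by -0.31. None of these 4, named for the smallest p in the list, overlapped between ligands. Against DMSO the G2/M list had a median of -0.25 with FICZ and -0.05 with KynA.

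Of 49 tested genes of G1/S and DNA replication, 46 had a negative difference, against 57.3% of all genes, and 0 passed in limma. Those lower with FICZ at an unadjusted p under 0.05 numbered 12, against 5.22% of all genes. The median was -0.16, and without FICZ 4 it was -0.105 with 8 genes lower at that level, against 3.73%. The origin recognition subunit ORC6 differed by -0.42 with overlap. DSCC1, a cohesion and clamp loading factor, differed by -0.34, DNA ligase LIG1 by -0.30 and the clamp loader subunit RFC3 by -0.23, all without overlap. Over the list, all FICZ arrays lay below all KynA arrays in 7 of 49 genes, against 2.79% of all genes.

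All 12 tested replication-dependent histone genes had a negative difference, against 57.3% of all genes, and 0 passed in limma. Those lower at an unadjusted p under 0.05 numbered 6, against 5.22% of all genes. Their median was -0.23, and without FICZ 4 it was -0.15 with 4 genes lower at that level, against 3.73%. The count lower was also 4 without KynA 2 or KynA 3, and 1 gene turned positive without FICZ 3. The linker histone gene HIST1H1A read 10.55, 10.49, 10.52 and 10.53 with FICZ and 10.76, 10.78, 10.96 and 10.81 with KynA, a difference of -0.31. HIST1H1B, HIST1H1C and HIST1H1D differed by -0.34, -0.31 and -0.29, the last by -0.21 without FICZ 4. These 4 linker genes, named for the smallest p in the list, did not overlap between ligands. Over the list, all FICZ arrays lay below all KynA arrays in 5 of 12 genes, against 2.79% of all genes. Probes for histone and ribosomal protein genes can share sequence with close copies, so values of their single genes are uncertain.

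Genes of cytosolic ribosomal proteins had a smaller median difference. Of 39 tested, 33 had a negative difference, against 57.3% of all genes, and 0 passed in limma. At an unadjusted p under 0.05, 2 (RPS18 and RPS23) were lower with FICZ, against 5.22% of all genes, and without 1 array this count ran from 0 (FICZ 4) to 6 (FICZ 1). The median was -0.08, and without FICZ 4 it was -0.04 with 0 genes lower at that level. FICZ 4 was the lowest array of RPS18, at 9.60 against 10.07 to 10.36 in the other FICZ arrays, and without it the RPS18 difference was -0.19. RPS23 differed by -0.23, and RPS9 and RPL18 by -0.14 each. Without FICZ 4 the difference was -0.19 for RPS23 and -0.09 for both RPS9 and RPL18.

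Over all 38 gene lists, SLC16A6 was the 1 member that passed without pairing. With pairing SLC16A6, IL1B, NPTX1, SECTM1 and TIPARP passed, and the plot of list members shows 16 of these lists.

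**Figure D4:**
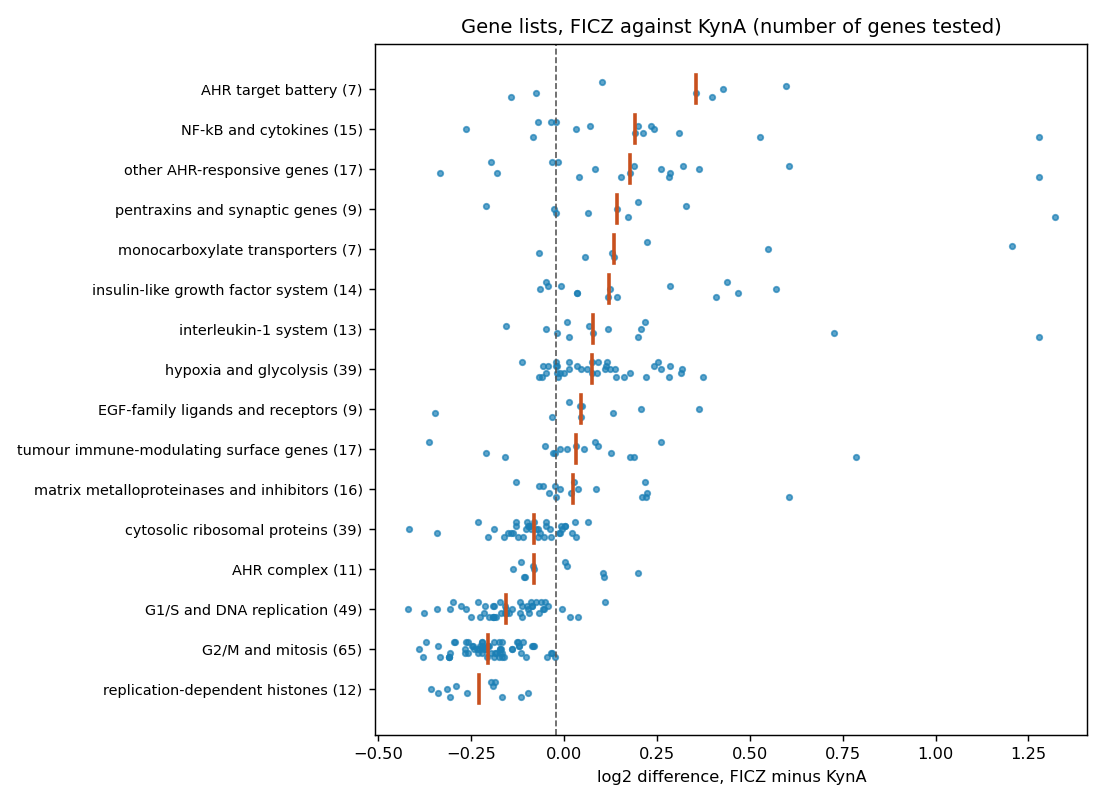
Log2 difference FICZ minus KynA (x axis) of the tested members of 16 gene lists (y axis), 1 point per gene, with the median of each list in orange and the median of all tested genes (-0.02) as a dashed line. The medians of G2/M, G1/S and histone genes lie left of the dashed line, and the AHR target battery has the highest median, 0.35.

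**Figure D5:**
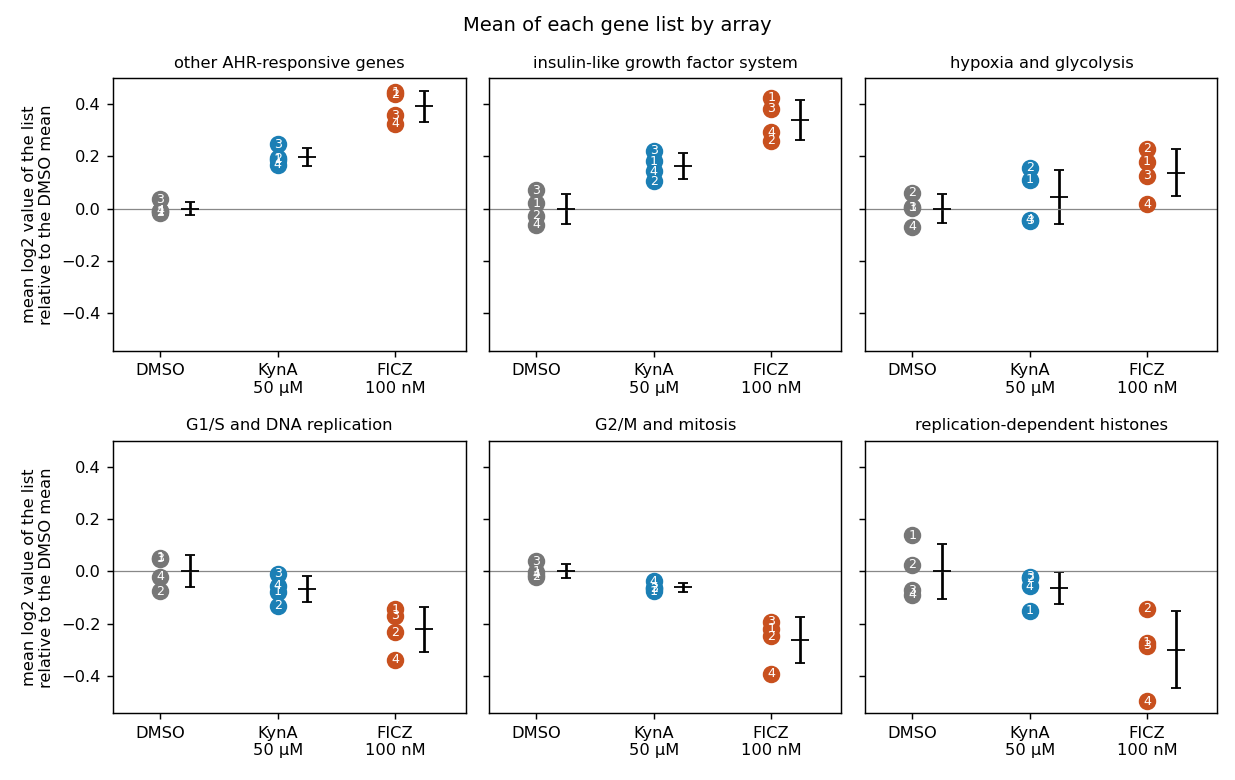
Mean log2 signal relative to the DMSO mean (y axis) of the tested members of 6 gene lists, in each DMSO, KynA and FICZ array (x axis). Points are arrays, numbered by replicate, and bars are the mean ± SD over arrays (n = 4). The G2/M list mean ran from -0.39 to -0.19 in FICZ arrays and from -0.08 to -0.04 in KynA arrays.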

How the data were processed

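The 12 arrays were Affymetrix whole-transcript arrays of total RNA. Per the submitters' processing notes, the authors used RMA and oligo, and the deposited table holds log2 signals. Versions of these tools were not stated in the labels. All value columns mapped to a sample (0 left out). Clusters with several symbols (744) or none (1438) were kept out of the gene tests. Where a gene had more than 1 cluster (45 genes), the brightest by mean was used. Symbols were kept as annotated, and 1008 of 13530 matched RefSeq only as older names. Testing required a signal over the array's 25th percentile (between 7.687 and 7.743) in 4 or more arrays.

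limma 3.58.1 in R 4.3.3 was fitted on log2 values of all 12 arrays, which gave 1 shared estimate of the spread, with two-sided tests and Benjamini-Hochberg adjustment over 10807 genes at 0.05. The paired fit added the replicate number as a fixed block. It was kept in the results because the comparison was set up without and with pairing, although the numbers did not meet the check for pairs (every correlation over 0.1). The fits were tested on simulated data. Plots were drawn with matplotlib 3.10.9 from tables made with pandas 2.3.3 (Python 3.11.15).

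Genes were named if they passed, if they were among the 15 largest in a direction at an unadjusted p under 0.01 without overlap, if they were CYP1B1, AHRR, TIPARP, NQO1, ALDH3A1 or AHR, or as up to 4 members with the smallest p of each of 16 lists. Cell type markers, and genes said to be chosen after their values were seen, are named outside this rule. The members and lists were chosen with earlier results of these data known. Alternatives changed the scaling, filter, clusters of a gene, variance model, array weights, arrays fitted and block, and left out arrays.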

Additional observations from a re-analysis of the deposited data

Results flagged for a closer look

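In 11 of 204 groups of 4 arrays checked, 1 array stood far from the other 3 relative to the group's range. Chance does this in about 1 of 20 groups. KynA 2 was such an array in 6 genes. It was the highest for ADAM17 (8.824), LIG1 (8.486), RPS18 (10.55) and SLC2A1 (9.961), and the lowest for AHRR (8.356, against 9.001 to 9.107) and RPS23 (10.1). FICZ 4 was the lowest for ASPM (9.655) and HIST1H1D (9.018, against 9.355 to 9.365). FICZ 2 was the highest for RAD9B (8.474) and for the mean of the interleukin-1 system relative to DMSO (0.4018), and KynA 4 was the highest for SLC16A7 (9.123).

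Among the 2182 transcript clusters with several or no gene symbols, 1494 were bright enough to test and 1 passed. Cluster 16852879, whose annotation gives several symbols and which is therefore not named, was higher with FICZ by 1.117 on the log2 scale (limma adjusted p = 0.00374 without pairing and 0.0063 with it). It read 8.799, 8.971, 8.991 and 8.759 in FICZ arrays 1 to 4, 7.297, 7.79, 8.039 and 7.926 in KynA arrays 1 to 4, and 6.949, 6.792, 7.102 and 7.15 in DMSO arrays 1 to 4. All FICZ arrays lay above all KynA arrays, and all KynA arrays above all DMSO arrays. At an unadjusted p under 0.05 there were 109 of the 1494 tested clusters, beside 901 of 10807 tested genes (8.34%).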

How the results depend on the processing

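SLC16A6 passed under every alternative run without a fixed replicate block. In limma 0 genes passed as lower with FICZ, except ADAMTS8 in the paired fit with the filter at the 50th percentile (an alternative added after the data were seen); 564 were lower at an unadjusted p under 0.05. Without a filter 2 genes passed, SLC16A6 and THBD, a dim gene (FICZ mean 7.69, KynA mean 6.959) named after its values were seen. The fixed replicate block gave 6 genes on 12 arrays and 2 on the 8 FICZ and KynA arrays. With the block, leaving out 1 replicate number gave 1 to 3 genes (3 without number 1), and leaving out 1 array, also added after the data were seen, gave 1 to 5. The paired result was 9 genes with each array centred on its median (adding KRT75, NFATC4 and THBS1), 7 with cyclic loess or the filter at the 50th percentile, 6 with trended robust variance or the mean of a gene's clusters, 5 with array weights, 3 without the filter, 1 without the block and 1 with a random block. In paired fits without number 2, 3 or 4, SLC16A6 had a difference of 1.15 to 1.25 and did not pass, and the cause was not tested.

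Of 86 named genes, 85 kept the sign of their difference under 27 alternatives. ALDH3A1 was 0.0273 with the block and without replicate 1, against -0.14. The numbers did not meet the check for pairs, so calls with the block rest on an assumption. Doses differed, and the precision is limited by 4 arrays per group. Signal over background was not given, so a dim gene's difference may understate the true one.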

Other observations

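Genes of the TGF-beta and BMP response and the matricellular gene THBS1 were looked at after their values were seen. Of 21 tested TGF-beta and BMP genes, 0 passed in limma. At an unadjusted p under 0.05, 2 were higher with FICZ, against 3.12% of all genes, and 4 were lower, against 5.22%. The median difference was -0.03, against -0.02 for all tested genes. BMP2, a ligand, differed by 0.37 and the antagonist GREM1 by 0.32. The BMP-responsive genes ID1, ID2 and ID3 differed by -0.33, -0.28 and -0.36, and BAMBI, a decoy receptor, by -0.55. ID1 read 10.28, 9.94, 10.07 and 10.03 in FICZ arrays 1 to 4 and 10.47, 10.15, 10.64 and 10.39 in KynA arrays 1 to 4, with overlap and with FICZ the lower at all 4 numbers.

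THBS1, thrombospondin 1, read 9.73, 9.07, 9.95 and 9.51 with FICZ and 8.99, 8.34, 9.31 and 9.20 with KynA. The ligands overlapped, and number 2 was the lowest of both groups. The difference was 0.60, with a limma adjusted p of 0.524 without pairing and 0.0507 with it, and it was 0.74, 0.72, 0.64 and 0.30 at numbers 1 to 4. It passed in some paired fits with other settings, among them cyclic loess.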
